A study of Mus musculus with 16 samples.

Results

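Sorted CD4+ CD8+ double-positive (DP) thymocytes of young mice labelled METTL3 KO were compared with those of young WT mice by bulk RNA sequencing. The comparison used 6 of the 16 libraries in the series, which were all those whose labels gave both an age of young and 1 of these genotypes. There were 3 young WT and 3 young METTL3 KO libraries. All 6 were labelled as sorted thymic DP cells. The exon deleted, the promoter or cell type that drove the deletion, the strain, the age in weeks and whether controls carried an allele of their own are named in none of the labels. Nothing in the labels says that replicates came from separate animals, so every test measures only the spread between these samples, part of which may be technical. Beside them the series holds 4 old WT libraries, and 3 WT and 3 METTL3 KO libraries whose labels give no age.

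METTL3 is the enzyme at the heart of the nuclear complex that adds the m6A mark (N6-methyladenosine) to RNA. Its partner METTL14 helps bind the RNA, WTAP and VIRMA hold the complex together, and YTH-domain and IGF2BP proteins read the mark in the nucleus and cytoplasm. DP cells are the thymic stage that rearranges the T cell receptor alpha chain and is tested for self-recognition, and it needs the RAG recombinase, the coreceptors CD4 and CD8 and survival factors such as BCL-XL. The series is about thymic involution and ferroptosis, a form of cell death by iron-dependent lipid peroxidation that GPX4 and cystine import through SLC7A11 restrain.

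Levels are given as CPM (gene counts scaled to a common library total after TMM, a correction for libraries dominated by different genes). Differences are log2 values of the libraries labelled KO minus young WT, each with its standard error or 95% interval from edgeR's quasi-likelihood model of the 6 libraries. Gene counts summed to between 9885792 and 10307780 per library. Between 41.7% and 43.2% of all counted entries fell in genes. Same-group libraries differed by more than sampling noise, with a chi-square per degree of freedom of 3.20 to 10.2 between pairs, so none was a second deposit of another. Xist and Y-linked counts marked 1 female and 2 males in each group, the females being young WT replicate 1 with 19687 Xist counts and KO-labelled replicate 3 with 27557. The other 4 libraries had 0 to 9 Xist counts, so each group held RNA of at least 2 animals.

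Mettl3 itself (ENSMUSG00000022160, chromosome 14, 52294841 to 52305128, minus strand, mm10) was examined before other genes, since it tests what the labels say. Its level was 66.2, 66.0 and 59.7 CPM in young WT and 62.4, 64.7 and 64.6 CPM in the libraries labelled KO. The KO-labelled values all lay inside the WT range. The log2 difference was 0.00 ± 0.07 with a 95% interval of -0.14 to 0.14, so a loss of more than 1.10-fold lay outside the interval. These are whole-gene counts, in which a deletion of a short stretch cannot be told apart from none, so the gene goes against the label only at that resolution. Of its annotated exons, 933 bp overlap those of Tox4 on the opposite strand, and no source used here gives the strand setting of the counting. Tox4, a nuclear protein gene, had a log2 difference of 0.06 (-0.06 to 0.19). For these reasons each library is named by its label throughout.

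The stretch of Mettl3 that codes for the catalytic motif is shown for reference. No label names the deleted exon and the gene counts do not separate exons, so whether the deletion takes in this stretch is not known. In the GENCODE transcript used, which has 11 exons and codes for 580 residues, the motif lies in exon 6 at residues 395 to 398. The 90 bases are on the minus strand of mm10 at chr14:52297542-52297631, all inside exon 6, and capitals mark the codons of the motif.
Mettl3 exon 6: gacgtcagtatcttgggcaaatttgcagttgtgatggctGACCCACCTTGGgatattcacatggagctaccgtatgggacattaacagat
All 9 genes of the writer complex were tested, and all 9 had intervals inside 1.25-fold, against 54.4% of the 13780 genes tested over the whole table. Mettl14, the RNA-binding partner, had 55.9, 50.7 and 49.7 CPM in young WT and 55.6, 52.1 and 54.5 CPM in the libraries labelled KO, a log2 difference of 0.05 ± 0.07. The groups overlapped. Wtap, the scaffold, had a log2 difference of 0.08 ± 0.06, with the lowest KO-labelled value level with the highest WT value. Rbm15b, an adaptor that directs the complex to RNA, stood lower in all KO-labelled libraries at -0.07 ± 0.06. Virma, Rbm15, Zc3h13, Cbll1 and Mettl16 had overlapping groups and estimates of 0.02 to 0.08. Of 13 readers and erasers, 12 were tested and 11 were bounded at 1.25-fold. The exception was Igf2bp2, a reader that stabilises bound messages, at 2.54, 1.41 and 1.72 CPM in young WT and 2.99, 2.68 and 2.79 CPM in KO-labelled libraries. Its groups did not overlap, but its interval ran from 0.00 to 1.15 at these low counts, and its adjusted p was 0.999 (edgeR quasi-likelihood test, Benjamini-Hochberg). Igf2bp3, its paralog, had an estimate of -0.08 (-0.31 to 0.16), and Ythdf2, a cytoplasmic reader that promotes decay, -0.07 (-0.20 to 0.05).

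Over the transcriptome the libraries labelled KO were about as far from young WT as young WT libraries were from each other. Distance was taken as the root mean square difference in log2 CPM over tested genes. It ran from 0.301 to 0.400 over the 9 pairs between the groups (median 0.358), 0.302 to 0.404 over the 3 pairs within young WT and 0.300 to 0.359 over the 3 pairs within the KO-labelled group. These pairs share libraries and get no test. Among the 10648 genes of at least 5 CPM, pairs of the same sex lay closer than mixed pairs. Those genes include Xist and Y-linked genes from which sex was read, so part of that order was set in advance. Between-group pairs of the same sex lay 0.189 to 0.256 apart and those of different sex 0.293 to 0.324. Within young WT the male pair lay 0.205 apart and the mixed pairs 0.317 and 0.322, and within the KO-labelled group the male pair lay 0.187 apart and both mixed pairs 0.288. On autosomal genes alone, distances between pairs were 0.298 to 0.367, and the order by sex was not kept. The female libraries of both groups lay farthest apart, at 0.367. Male WT replicate 2 and female KO-labelled replicate 3 lay 0.307 apart. The highest values all involved the female young WT library (replicate 1). On the same scale fitted with the old WT libraries, old WT pairs lay 0.508 to 0.801 apart, against 0.343 to 0.454 for young WT with KO-labelled pairs.

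**Figure D1:**
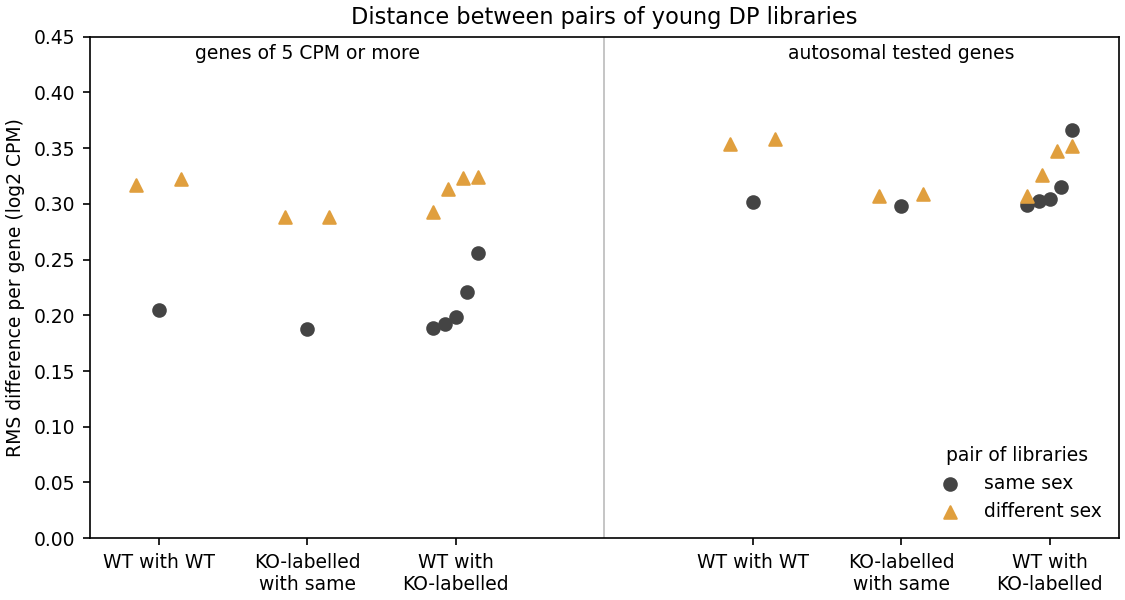
Root mean square difference per gene in log2 CPM (y axis) for each pair of the 6 young libraries, by pair type, for genes of at least 5 CPM (left) and autosomal tested genes (right); circles are pairs of the same sex and triangles pairs of different sex. On the left, where the genes include those from which sex was read, same-sex pairs between the groups lie at 0.189 to 0.256. Mixed pairs of any kind lie there at 0.288 to 0.324.

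No gene passed the test. Of 13780 genes tested, 0 (0%) had an adjusted p under 0.05 by edgeR's quasi-likelihood test with Benjamini-Hochberg adjustment, and 521 (3.78%) had an unadjusted p under 0.05. Of these, 299 (2.17% of all tested) were higher in the libraries labelled KO and 222 (1.61%) lower. By DESeq2 and by limma-voom 1 gene passed in each, mt-Nd6 and Tex11, which are described with their values further on. Without the filter on low counts 25 of 27377 genes passed. Among them were Tex11, mt-Nd6, Hspg2, Jup, Rpl7a, H2-D1, Cox14 and Tmie, also described further on. With 1 library left out the count was 0 to 8, and it reached 8, Hspg2, Rpl7a and Tex11 among them, without young WT replicate 3. Estimates were above 0 for 49.8% of genes, and the quartiles of the estimates were -0.07 and 0.08. All KO-labelled libraries lay above all WT libraries for 4.56% of genes, and below them for 4.69%. In the same model, fitted with sex as a second term, 20 genes passed for sex, among them the X-linked Kdm5c (-0.50 in males against females), Kdm6a (-0.72) and Eif2s3x (-0.40), which escape X inactivation, and the immediate-early Fos (0.50) and Jun (0.36).

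The intervals set how large a difference could have gone unseen. A gene is called bounded at a given fold where its whole 95% interval lies inside that fold in both directions, gene by gene and with no adjustment for the number of genes. Of the tested genes 54.4% were bounded at 1.25-fold, 77.4% at 1.5-fold and 93.4% at 2-fold. The bound depended on the level. Among the 2569 genes of 100 CPM or more, 98.5% were bounded at 1.5-fold, with a median half-width of 0.13 on the log2 scale. Among the 2983 genes of 1 to 5 CPM, 15.99% were, with a half-width of 0.59. Of the 149 genes under 1 CPM 0% were bounded at 1.5-fold, so for no gene at that level was a difference of this size excluded in both directions.

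**Figure D2:**
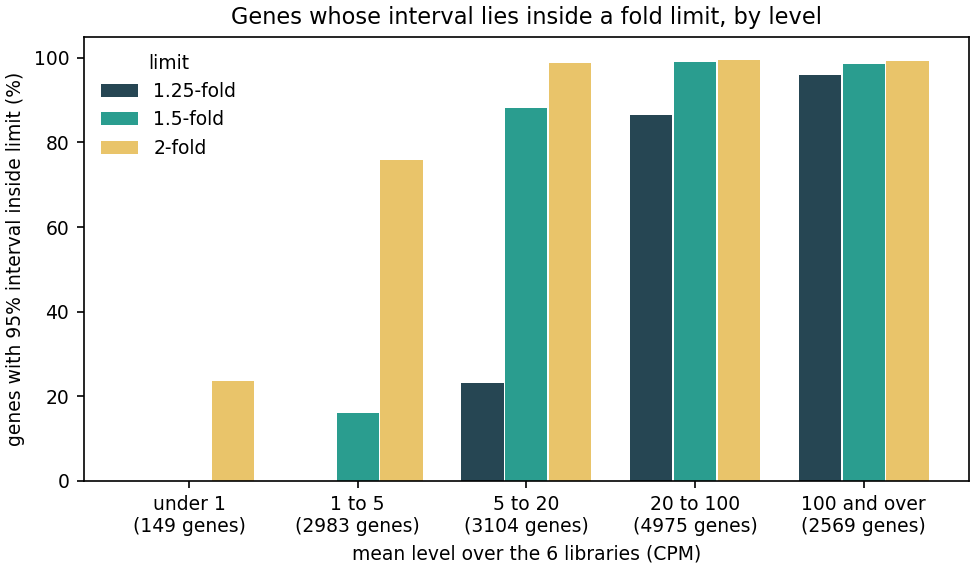
Share of tested genes (y axis, percent) whose 95% interval lies inside a 1.25-fold, 1.5-fold or 2-fold difference, by mean level over the 6 libraries in CPM (x axis, with the number of genes). The share bounded at 1.5-fold goes from 15.99% at 1 to 5 CPM to 88.2% at 5 to 20 CPM and 98.9% at 20 to 100 CPM.

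The genes that define DP cells were high in both groups and close between them. Of 15 DP identity genes, all were tested and all were bounded at 1.5-fold (77.4% over the table) and 14 at 1.25-fold. Cd8a, the alpha chain of the CD8 coreceptor, had 2509, 2328 and 2292 CPM in young WT and 2508, 2275 and 2346 CPM in the libraries labelled KO. The groups overlapped almost fully, and the log2 difference was 0.00 (-0.12 to 0.12), which leaves outside the interval any change beyond 1.09-fold. Cd4, the other coreceptor, had 1309, 1349.5 and 1221 CPM against 1518, 1254 and 1307 CPM. KO-labelled replicate 1 stood above the rest, and the difference was 0.07 (-0.07 to 0.22). Rag1, the recombinase subunit that cuts receptor gene segments, had 7059, 5480.4 and 5543 CPM against 5956, 5928 and 5372 CPM. The female WT library was highest, and the others overlapped. The Rag1 difference of -0.07 (-0.27 to 0.13) was bounded at 1.20-fold, and in the male libraries alone it was 0.11. Rag2, its partner, had a difference of 0.05 (-0.10 to 0.19). For Dntt, the polymerase that adds bases at junctions, it was 0.08 (-0.04 to 0.19). Bcl2l1, which encodes the survival factor BCL-XL, had 0.00 (-0.13 to 0.13). Ccr9, a homing receptor for thymic chemokine, had 0.02 (-0.10 to 0.13).

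Ptcra and Themis were the DP identity genes whose groups did not overlap, 1 of the 15 in each direction. Over all tested genes the KO-labelled libraries lay below WT in 4.69% and above in 4.56%. Ptcra encodes the pre-T cell receptor alpha chain, used before the DP stage and then shut down. It had 30.6, 25.3 and 30.1 CPM in young WT and 20.8, 21.9 and 25.2 CPM in the libraries labelled KO. All KO-labelled values were lower, the highest of them just under the lowest WT value. The log2 difference was -0.34 ± 0.10 (-0.56 to -0.13), and the adjusted p was 0.999 by edgeR's quasi-likelihood test with Benjamini-Hochberg adjustment. Markers of early thymocytes, the stage that uses Ptcra, had a median difference of -0.15 over the 9 of 14 that were tested. In the male libraries alone that median was -0.01, with 4 of the 9 above 0, while Ptcra had -0.38. The summed level of these markers was 270 to 395 CPM in young WT, highest in the female library, and 278 to 318 CPM in KO-labelled libraries. Their part in the Ptcra value was not tested. In bulk RNA fewer cells of a type and less RNA per cell cannot be told apart. Themis, an adaptor that tunes receptor signals during selection, had 1012, 1073 and 1101 CPM against 1149.6, 1150.5 and 1169 CPM. The KO-labelled values were all higher, at a log2 difference of 0.12 (0.01 to 0.24), bounded at 1.18-fold.

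**Figure D3:**
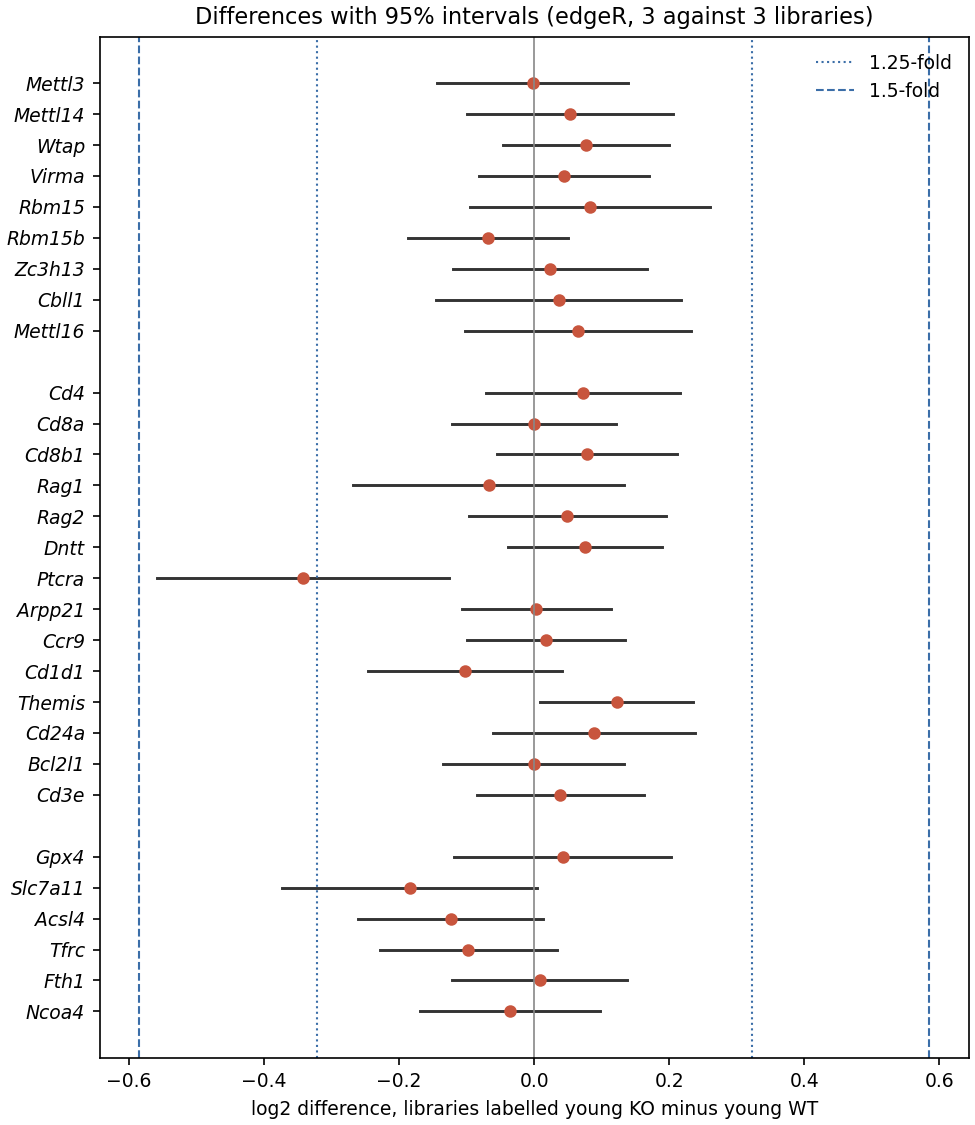
Log2 difference of the libraries labelled young KO minus young WT (x axis; points) with 95% intervals (lines) for the m6A writer list (top), DP identity genes (middle; 14 of the 15) and ferroptosis genes (bottom), with dotted lines at 1.25-fold and dashed lines at 1.5-fold. All intervals shown lie inside 1.5-fold, and those of Ptcra and Slc7a11 cross the 1.25-fold line.

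The regulators around these genes had narrow intervals too. All 20 DP transcription factors were tested and bounded at 1.5-fold, with a median of -0.01 (the median of all tested genes was 0.00). Tcf7, which encodes the factor TCF1 that maintains T cell identity, had 0.00 (-0.11 to 0.12). The chromatin organiser Satb1 had 0.03 (-0.09 to 0.15) and Ets1 0.01 (-0.10 to 0.13). The lowest estimates were those of Foxo1 at -0.11 (-0.29 to 0.07), which was 0.00 in the male libraries alone, and Lef1 at -0.10 (-0.23 to 0.02). All 22 genes of the T cell receptor complex and its proximal signalling were bounded at 1.25-fold, with estimates from -0.09 to 0.08. Lck, the kinase that starts the signal, had 1774, 1785 and 1836 CPM in young WT and 1834, 1917 and 1854 CPM in KO-labelled libraries. The groups overlapped at their edge, at a log2 difference of 0.06 (-0.05 to 0.16). Rasgrp1, which links the receptor to RAS, had the lowest estimate of the 22 at -0.09 (-0.22 to 0.04).

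Genes induced by positive selection had wider intervals than the receptor complex. Of 18, 17 were tested, and 13 were bounded at 1.5-fold, with a median of 0.03. Cd5, which scales with receptor signal, had 238, 241 and 221 CPM against 247, 239 and 229 CPM and a difference of 0.03 (-0.09 to 0.16). Egr2, an early target of the receptor, had 11.1, 10.8 and 11.4 CPM in young WT and 7.67, 10.5 and 9.28 CPM in the libraries labelled KO. All of the latter were lower, yet the interval of -0.57 to 0.01 took in 0. Irf4 had -0.36 (-0.75 to 0.04) with overlapping groups. Among 16 genes of end joining and the response to DNA breaks, which repair RAG cuts, 15 were bounded at 1.5-fold. The 2 with the smallest p, Rad50 at -0.12 (-0.27 to 0.02) and Prkdc at -0.11 (-0.26 to 0.03), stood lower in all KO-labelled libraries, as 4.69% of all genes did.

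Survival genes differed in how tightly they were held. Of 15 BCL2 family genes 11 were tested and 10 were bounded at 1.5-fold. Mcl1, which blocks cell death in DP cells, had 0.08 (-0.04 to 0.19). Bax, which permeabilises mitochondria, had the highest estimate of the list, with 10.5, 11.7 and 12.3 CPM in young WT and 14.7, 12.6 and 12.6 CPM in KO-labelled libraries. All KO-labelled values were higher, at 0.21 (-0.05 to 0.47). Bcl2l11, which encodes the killer BIM, had 107, 137 and 151 CPM in young WT and 132, 139.8 and 127 CPM in KO-labelled libraries. Its lowest value was in the female WT library, and the difference was 0.02 (-0.23 to 0.26). Bmf, another killer of that class, had the widest interval of the named members, at 149.7, 255 and 255 CPM against 191, 296 and 185 CPM. The libraries of 1 group differed so much that the difference of 0.03 had an interval of -0.87 to 0.92. Of 10 SOCS and STAT5 genes 9 were tested, with a median of 0.01. Stat5b, which relays interleukin-7 signals, had 0.01 (-0.11 to 0.12), while the low target gene Cish had 0.49 (-0.22 to 1.19). Of 16 immediate-early and handling genes, which respond to stress during cell isolation, 12 were tested, with a median of 0.04. Jun had 104, 134 and 137 CPM against 149, 159 and 122 CPM, lowest in the female library of each group, at 0.20 (-0.12 to 0.52).

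Ferroptosis genes were the subject of the series and were bounded for the main members. Gpx4, which reduces lipid peroxides, had 78.5, 90.2 and 97.2 CPM in young WT and 88.2, 98.0 and 87.4 CPM in the libraries labelled KO. The female WT library was lowest, the groups overlapped, and the difference was 0.04 (-0.12 to 0.20), or within 1.15-fold. Slc7a11, the cystine importer, had 172, 197 and 215 CPM against 156, 192 and 165 CPM. The groups overlapped, with an estimate of -0.18 ± 0.09 and an interval of -0.37 to 0.00, within 1.29-fold. Acsl4, which makes the lipids that are oxidised, had 64.9, 64.9 and 61.2 CPM against 58.7, 58.3 and 58.4 CPM. All KO-labelled values were lower and close to each other, at a difference of -0.12 (-0.26 to 0.01). Tfrc, which imports iron, had -0.10 (-0.23 to 0.03). Fth1, which stores it, had 0.01 (-0.12 to 0.14), and Ncoa4, which sends ferritin for breakdown, -0.04 (-0.17 to 0.10). Por, an oxidoreductase that promotes lipid peroxidation, had -0.13 (-0.27 to 0.01). Ptgs2, often used as a marker of ferroptosis, had 0 to 0.297 CPM and was too low to test. Of 27 genes of ferroptosis restraint 21 were tested, with a median of -0.02, and of 28 of promotion 21 were tested, with a median of -0.04. None of those tested had an unadjusted p under 0.05, against 3.78% over the table.

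Cell-cycle genes had small estimates, most of them below 0. Of 27 mitosis genes, all tested and all bounded at 1.5-fold, 2 were above 0 (49.8% over the table), with a median of -0.06 and 0 with an unadjusted p under 0.05. These genes move together within a library, so their count is not 27 independent readings. Ube2c, which starts exit from mitosis, had 134, 114 and 114 CPM in young WT and 97.0, 108 and 119 CPM in KO-labelled libraries. The groups overlapped, and the estimate of -0.16 (-0.33 to 0.01) was the lowest of the list. Mki67, the proliferation marker, had 0.00 (-0.13 to 0.13), and Top2a, which untangles chromosomes, -0.10 (-0.24 to 0.04). The mean log2 CPM of the list was highest in the 2 female libraries (7.38 in young WT, 7.35 in the KO-labelled group) and lowest in KO-labelled replicate 1 at 7.09. Of 31 DNA replication genes 9 were above 0, with a median of -0.04. Pcna, the polymerase clamp, had 0.06 (-0.07 to 0.20) and Mcm2, of the replicative helicase, -0.12 (-0.25 to 0.01). Of 15 p53 targets and cell-cycle inhibitors 12 were tested, with a median of 0.03. Cdkn1b, which encodes the inhibitor p27, had 416, 453 and 477 CPM against 507, 484 and 487 CPM. All KO-labelled values were higher, at 0.13 (0.01 to 0.26).

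Interferon-stimulated genes stood slightly higher in the libraries labelled KO without any gene passing the test. Of 45 in the list 43 were tested, 39 had an estimate above 0 (49.8% over the table), and 11 had an unadjusted p under 0.05 in that direction against 2.17% of all tested genes. The median difference was 0.19, and in the male libraries alone it was 0.22. The mean log2 CPM of the list was 3.91, 3.79 and 3.77 in young WT and 4.15, 3.94 and 3.97 in KO-labelled libraries. The groups did not overlap in that mean, but the female WT library came close to the lowest KO-labelled one. Groups of the end joining and DNA break list did not overlap in their mean either, in the other direction. There the lowest young WT value was 5.8317 and the highest KO-labelled one 5.8259. In the interferon-stimulated list the highest young WT value was 3.9105 and the lowest KO-labelled one 3.9371. In summed level of the interferon-stimulated list the groups overlapped, at 1532, 1443 and 1451 CPM in young WT and 1663, 1521 and 1634 CPM in KO-labelled libraries. All KO-labelled libraries stood above all WT libraries in 3 of the 43 (4.56% over the table), and below them in 1 (4.69% over the table). Members of such a list follow the same signal and are not independent, and the low ones had passed a filter on counts. Gbp2, a guanylate-binding defence protein, had an estimate of 0.22 and groups that did not overlap, as did Xaf1 at 0.35. Ifi27l2a had 3.32, 4.02 and 4.85 CPM against 7.97, 4.66 and 6.39 CPM, overlapping groups at a difference of 0.64 (0.19 to 1.10). Samd9l, a restriction factor, had 97.7, 79.8 and 86.3 CPM against 115, 92.1 and 110.5 CPM, which also overlapped, at 0.27 (0.08 to 0.46). The 3 most abundant members had intervals that took in 0. Psmb8, an immunoproteasome subunit, had 0.04 (-0.08 to 0.16), Sp100 0.02 (-0.11 to 0.15) and Tap1, a peptide transporter subunit, 0.08 (-0.06 to 0.22). Mx1, an antiviral GTPase at about 1 CPM, had the lowest estimate at -0.34.

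Estimates for cytosolic ribosomal protein genes were smaller and mostly of the same sign. Of 79, all tested, 73 had an estimate above 0 (49.8% over the table) and 8 an unadjusted p under 0.05 in that direction (2.17% over the table). In 3 of the 79 all KO-labelled libraries stood above all WT libraries (4.56% over the table). The list had a median of 0.10, or 0.06 among male libraries. The mean log2 CPM was 7.98, 8.07 and 8.30 in young WT and 8.24, 8.29 and 8.14 in KO-labelled libraries. The groups overlapped, because the third WT library was the highest of the 6. Rpl7a had 130.4, 129 and 159 CPM against 187, 173 and 168 CPM, with all KO-labelled values higher, at 0.34 (0.18 to 0.50). Rpl39, which lines the ribosome's exit tunnel, had 0.20 (0.07 to 0.32). The most abundant member, Rpl4, had 0.02 (-0.12 to 0.16). Many of these genes have near-identical processed copies in the genome, among which the counting could split reads. Of the 13 mitochondrially encoded genes 11 were tested, with a median of -0.08 and a spread between WT libraries (mean log2 CPM 8.03 to 8.79) wider than between the groups. mt-Nd6, the only protein gene encoded on its strand of the mitochondrial genome, had 297, 300.3 and 361 CPM against 269, 228 and 223 CPM. All KO-labelled values were lower, at -0.41 ± 0.09 (-0.60 to -0.23), with an adjusted p of 0.999 by edgeR's quasi-likelihood test (Benjamini-Hochberg) and 0.0336 by DESeq2. Both mitochondrial strands are transcribed over their length, and with the strand setting not stated, reads of mt-Nd6 cannot be told apart from those of the other strand.

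**Figure D4:**
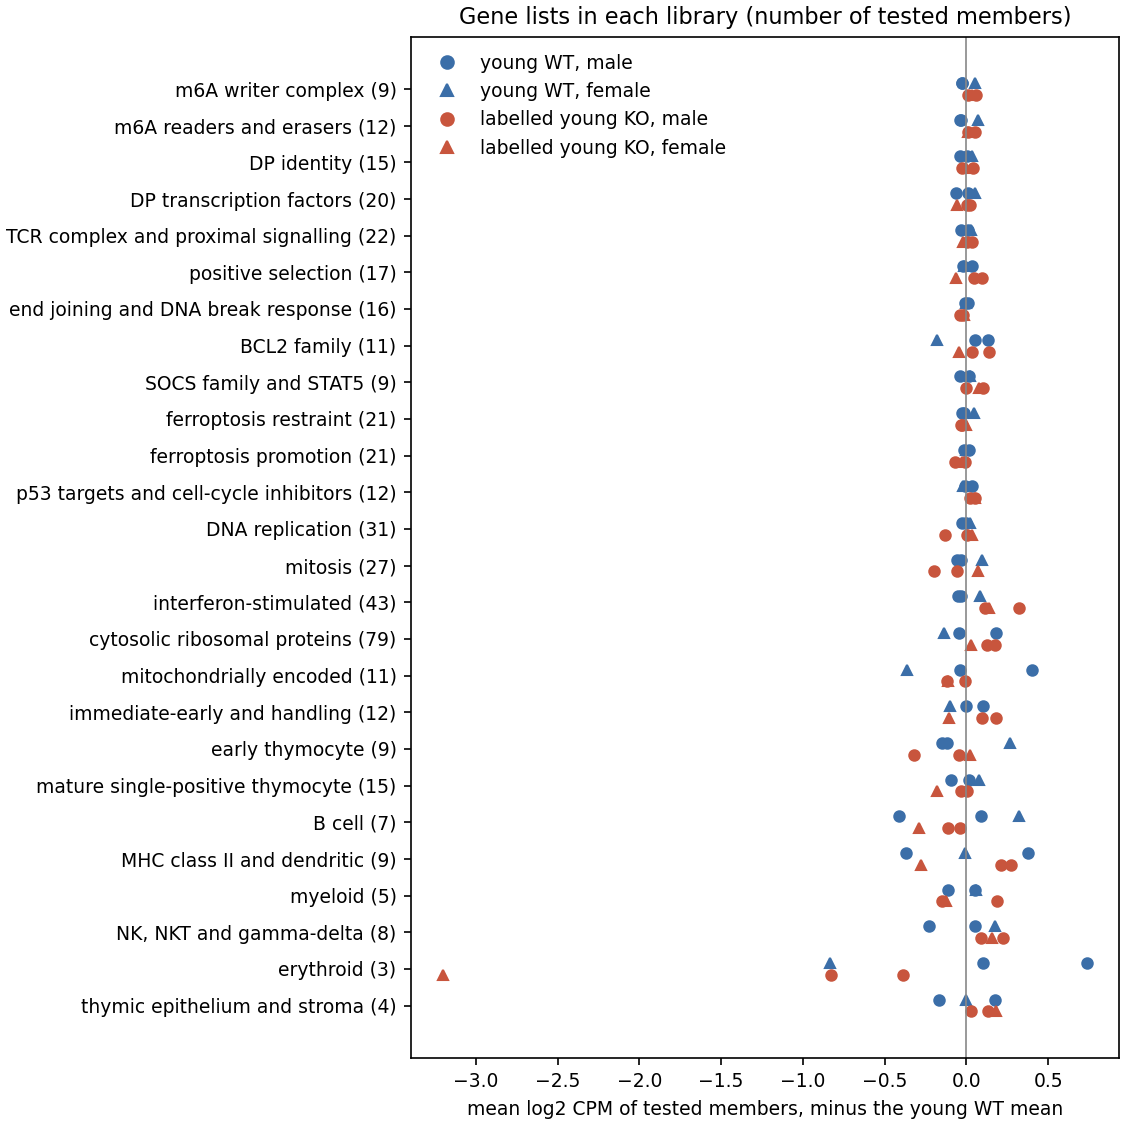
Mean log2 CPM of the tested members of each gene list in each library, minus the young WT mean (x axis), with the number of tested members in parentheses; circles are male and triangles female libraries. The interferon-stimulated list is higher in all KO-labelled libraries, and the end joining and DNA break list lower in all of them by a small margin. Lists of other cell types with few tested members, such as the 3 erythroid genes, are the most scattered.

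Among ordinary genes of at least 5 CPM whose groups did not overlap, the 6 with the smallest p in each direction had adjusted p values of 0.835 (Hspg2) to 0.999 by edgeR's quasi-likelihood test with Benjamini-Hochberg adjustment. Hspg2, which encodes the basement membrane proteoglycan perlecan, had 24.7, 21.3 and 16.4 CPM in young WT and 11.8, 13.9 and 13.4 CPM in KO-labelled libraries. Every KO-labelled library was lower, at -0.68 ± 0.14 (-0.97 to -0.39). Jup, the junction protein plakoglobin, had 113, 93.0 and 86.6 CPM against 71.1, 81.2 and 73.1 CPM, a difference of -0.38 (-0.57 to -0.18). Inpp5f, a phosphoinositide phosphatase, had 17.6, 17.4 and 17.7 CPM against 13.2, 14.5 and 13.5 CPM. The SD was 0.145 CPM in young WT and 0.649 CPM in the KO-labelled group, and the difference of -0.35 (-0.57 to -0.14) did not pass. Eif2ak4, the amino acid sensor kinase GCN2, had -0.42 (-0.66 to -0.19) and Nav2, a neuron navigator protein, -0.32 (-0.50 to -0.13).

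In the other direction H2-D1, a classical MHC class I heavy chain, had 178, 177 and 181 CPM in young WT and 235, 199 and 223 CPM in the libraries labelled KO. The WT values were close to each other and all KO-labelled values were higher, at 0.29 ± 0.06 (0.15 to 0.43). MHC class I genes have near-identical paralogs, among which reads may be split. Herc6, a ubiquitin ligase that interferon induces, had 18.5 to 19.4 CPM against 22.6 to 26.3 CPM, a difference of 0.38 (0.18 to 0.58). Cox14, an assembly factor of cytochrome c oxidase, had 0.39 (0.19 to 0.58). Tmie had 0.51 (0.24 to 0.78), and the magnesium transporter Slc41a3 had 3.71, 4.22 and 4.85 CPM against 7.07, 5.65 and 8.68 CPM, at 0.74 (0.34 to 1.15).

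**Figure D5:**
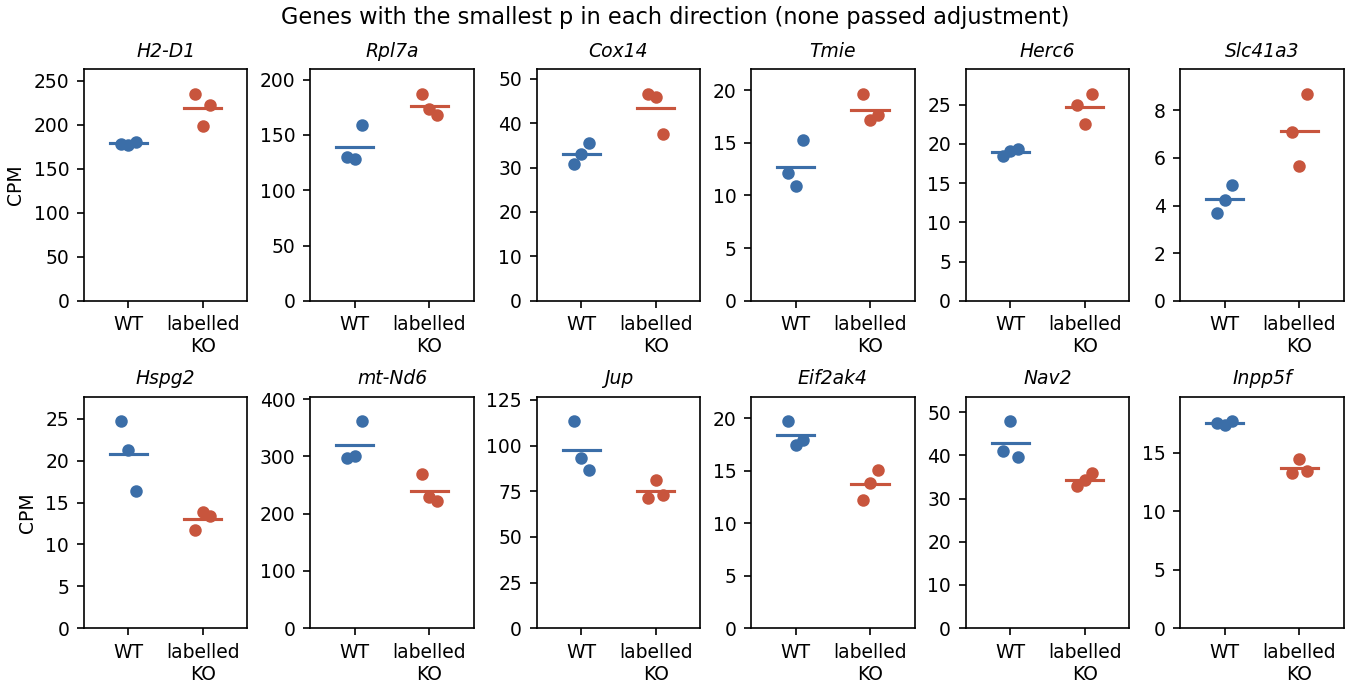
CPM (y axis, from 0) in each of the 3 young WT (blue) and 3 KO-labelled (red) libraries, with group means as lines, for the 6 genes with the smallest p in each direction among genes of at least 5 CPM without overlap. KO-labelled values are all higher in the top row and all lower in the bottom row, which is how these genes were chosen.

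Large differences were few. Over all tested genes 24 had an estimate beyond 2-fold, of which 8 had at least 5 CPM. Tex11, which acts in meiosis and lies on chromosome X (100838648 to 101059667, mm10), came nearest to the threshold, with an adjusted p of 0.0691 by edgeR's quasi-likelihood test (Benjamini-Hochberg) and 0.0294 by limma-voom. It had 30, 10 and 14 counts in young WT and 1, 0 and 0 counts in the libraries labelled KO. Every WT library was above every KO-labelled one, and the ratio of summed counts, scaled to depth, was 54.0 with an exact 95% counting interval of 9.3 to 2173. Tex11 passed the filter on low counts only through the group where it is high, so its p and ratio are given as a description. All 4 old WT libraries had 0 counts.

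Slc15a2 and Sumo2 were singled out once their values had been seen, as the tested genes of over 100 CPM with estimates beyond 2-fold. Slc15a2, the peptide transporter PEPT2 (chromosome 16, 36750177 to 36784962), had 2055, 1992 and 2800 counts in young WT and 613, 795 and 36 counts in the libraries labelled KO. The KO-labelled libraries were all lower but far apart from each other. Its estimate of -2.25 ± 0.89 therefore had an interval of -4.70 to 0.19 and did not pass. The 4 old WT libraries had 3167, 1544, 268 and 0 counts of Slc15a2, a range that takes in both young groups. Sumo2, a ubiquitin-like modifier with many processed copies, had 109, 196 and 199 CPM against 51.4, 68.6 and 123 CPM. The groups overlapped in the female libraries, and the interval of -2.29 to 0.18 took in 0.

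Markers of other cell types that a DP sort could let through were counted in each library. The summed level of 5 tested myeloid markers was 25.7 to 28.0 CPM in young WT and 21.6 to 31.8 CPM in KO-labelled libraries, with Cd14 at 0 in all 6. The 9 tested MHC class II and dendritic markers, of 12, summed to 52.8 to 91.1 CPM and 63.7 to 92.9 CPM. Irf8, a factor of dendritic cells, had 8.59, 7.74 and 10.6 CPM against 11.3, 12.2 and 11.98 CPM, which did not overlap, while Ciita, which drives class II, had -0.66 (-1.29 to -0.03) in the other direction. Of 14 natural killer, NKT and gamma-delta markers 8 were tested, with a summed level of 135 to 157 CPM in young WT and 140.1 to 168 CPM in KO-labelled libraries and a median difference of 0.15. Trdc, the delta chain constant region, made up most of that sum, at 94.7 to 107 CPM and 90.04 to 109.7 CPM. Gzma, a cytotoxic granule protease, had 0.32 (0.08 to 0.56). The 7 tested B cell markers, of 14, summed to 444 to 499.7 CPM and 467 to 519.8 CPM, with a median difference of -0.11. Ighm, the immunoglobulin mu constant region, made up most of that sum in every library, at 417 to 469 CPM and 435 to 491 CPM. The 3 tested erythroid genes, of 11 in the files, were all below 0. Their summed level was 5.57, 14.8 and 9.30 CPM in young WT and 5.28, 7.33 and 1.497 CPM in KO-labelled libraries, and in each group it was lowest in the female library. Hba-a1, a globin gene, had -1.90 with an interval of -4.27 to 0.46. Of 4 tested stromal genes 2 were above 0, and Foxn1, the thymic epithelial factor, was at 0 in all 6 libraries. Markers of mature single-positive thymocytes had a median of 0.02 over 15 tested, of which 8 were above 0. Cd52 had 75.4, 79.8 and 85.4 CPM against 96.1, 88.1 and 97.6 CPM, and Ms4a6b 57.9, 59.1 and 52.0 CPM against 71.5, 65.7 and 63.8 CPM. Neither pair of groups overlapped, at 0.23 (0.09 to 0.37) and 0.25 (0.10 to 0.40). Ly6c2, added because it went the other way, had the lowest estimate of the list at -1.09 (-1.96 to -0.21), with overlapping groups of 2.64, 0.905 and 1.72 CPM against 0.797, 0.694 and 0.998 CPM.

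The series holds a second comparison labelled METTL3 KO against WT, in which no age is given, and the 2 differences were compared because they share no libraries. Without an age 8802 of 16340 genes (53.9%) passed the same test. Of these 8802 genes 6031 were tested in the young libraries, where 5114 were bounded at 1.5-fold, against 77.4% of all genes tested there. For 6001 the young interval left out the estimate without an age. These genes were picked for a difference from 0 without an age, so that count was largely set in advance. The young interval also leaves out the error of the estimate without an age. A joint fit of the 12 libraries found the 2 differences unequal for 6104 of 16557 genes (36.9%). Joint scaling moved the difference of the estimates by -0.17 in the median gene. Rag1 showed the gap most among DP identity genes, with a young estimate of -0.07 and one of -2.44 without an age. The joint difference of 2.20 ± 0.19 had an adjusted p of 8.69e-06 (edgeR quasi-likelihood test, Benjamini-Hochberg). Of the 15 DP identity genes 9 passed in the joint fit, and of the 9 writer genes 3 did. Mettl3 had 0.00 in young and -0.58 without an age, and was not among the 3. Between 50.5% and 52.2% of entries were not aligned in the libraries without an age, against 0.751% to 0.826% here, so age, batch, library make-up and the deletion used cannot be told apart. Within that set 27.5%, 27.3% and 29.5% of entries fell in genes in the KO-labelled libraries, against 37.0%, 37.3% and 37.0% in WT. The difference without an age therefore cannot be told apart from one of library make-up.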

How the data were processed

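RNA of sorted thymic DP cells was sequenced in 16 libraries, and 6 of them were compared here. The authors deposited 1 raw count per gene and library, made per the submitters' processing notes from reads aligned with HISAT2 2.0.5 to mm10. For the counting program, its annotation and strand, the answer is not given in the sources used here, and reads of overlapping genes on opposite strands may be mixed. The last 5 lines of each file, which name no gene and held 56.8% to 58.3% of entries, were left out. Of 55335 gene identifiers 55154 matched a symbol. Coordinates came from GENCODE for mm10.

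Counts were fitted with edgeR 4.0.16 in R 4.3.3: filterByExpr, TMM, robust quasi-likelihood, two-sided, at 0.05 after Benjamini-Hochberg adjustment. Intervals at 95% came from the same fit. Distances used log2 CPM with a prior count of 1. Counts of Xist and of Y-linked genes gave the sex of a library, at a threshold of 100. The joint fit took 12 libraries and the genes listed in both sets. The procedure was tested on simulated data.

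Named genes were all members of the writer and DP identity lists, 3 of highest level and 2 of smallest p in other lists, 12 fixed genes, and the 6 of smallest p in each direction among genes of at least 5 CPM without overlap. Some genes under this rule are not reported here. Gbp2, Xaf1, Mx1, Ly6c2, Slc15a2, Sumo2 and the genes named for sex were chosen after their values were seen. Members and lists were chosen with earlier results of these data known. Alternatives were DESeq2 1.42.0 and its size factors, library size, other filters, limma-voom (limma 3.58.1), a replicate block, a fit of the 10 libraries with an age, sex as a covariate and each library left out, and, added after the data were seen, male libraries and autosomal genes alone. Tables and figures were made in Python 3.11.15 (matplotlib 3.10.9, pandas 2.3.3, scipy 1.17.1). Exact counting intervals cover counting error only.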

Additional observations from a re-analysis of the deposited data

Results flagged for a closer look

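A joint fit of 12 libraries tested whether the difference labelled METTL3 KO was unequal in the young libraries and in those without an age, and 11 of the writer and DP identity genes reported here passed (adjusted p 8.69e-06 for Rag1 to 0.0384 for Cd1d1, edgeR quasi-likelihood test, Benjamini-Hochberg). Over all 16557 genes of that fit 6104 (36.9%) passed, and of the 9 writer genes 3 did, which is near that share. Each value below is the young difference minus the difference without an age on the log2 scale. The recombinase genes stood at 2.20 for Rag1 and 1.13 for Rag2, the signalling adaptor Themis at 1.35 and the chemokine receptor Ccr9 at 1.25. The surface proteins Cd24a and Cd4 stood at 0.85 and 0.70, and the polymerase gene Dntt at 0.59. Of the m6A writer complex Rbm15b stood at 0.97, Virma at 0.70 and Cbll1 at 0.67. For these genes the estimate without an age was below 0 and the young one lay between -0.07 and 0.12. Cd1d1, which presents lipids to NKT cells, had the opposite sign at -0.54, with an estimate above 0 without an age. Age, set, library make-up and processing cannot be told apart in these values.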

How the results depend on the processing

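The count of 0 genes passing in the 6 young libraries stayed 0 with DESeq2 size factors, library size alone, a filter of 1 CPM in 3 libraries, and the fit of 10 libraries with an age. It was 1 by DESeq2 (mt-Nd6), 1 by limma-voom and 1 with sex as a covariate (Tex11 in both). Without a filter on low counts it was 25, among them Tex11, mt-Nd6, Hspg2, Jup, Rpl7a, H2-D1, Cox14 and Tmie. In the male libraries alone it was 3 (Gm10241, Sumo2 and Gm10800). With 1 library left out it was 0 to 8: 1 without young WT replicate 1, 2 without WT replicate 2, 8 without WT replicate 3 (among them Hspg2, Rpl7a and Tex11), 2 without KO-labelled replicate 2 and 0 without KO-labelled replicates 1 and 3. The cause was not tested. Genes bounded at 1.5-fold numbered 9281 to 10849 over all these settings, against 10667 of 13780 (77.4%) in the main fit. The number tested differed, so the shares differed more. They were 39.6% (10849 of 27377) without a filter and 65.2% (9281 of 14228) in the fit of 10 libraries. In the latter fit 27.9% were bounded at 1.25-fold, against 54.4% in the main fit. The replicate number as a block gave 6 genes, among them Tex11, and 4543 in the joint fit against 6104. Deviations from the group means in libraries of the same number correlated at -0.36, 0.20 and -0.41 across genes. For the 2 female libraries, which have different numbers, the value was 0.55. The genes used include Xist and Y-linked ones, and numbers 1 and 3 each join a female and a male library. These values therefore cannot settle whether the numbers pair the samples. Of 148 named genes with an estimate, 23 moved by more than 1 SE in the male libraries alone, 20 without WT replicate 1 and 12 without WT replicate 3, against 0 to 5 under each other setting. Genes under 5 CPM had the widest intervals in the median.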
